A study of Homo sapiens with 12 samples.

Results

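The subject is the Eph receptors and ephrins of non-neoplastic human mammary epithelial cells grown as acini. A list of 10 genes defined it, and its members are all probe sets that the array's annotation assigns to exactly 1 of these symbols. Of the 10 listed genes, 9 had such a probe set, which gave 13 probe sets among the 22215 that were not controls. They covered 7 receptors (EPHA1, EPHA2, EPHA4, EPHA7, EPHB3, EPHB4 and EPHB6) and 2 ligands (EFNA1 and EFNB2). EPHB2, also listed, had no probe set assigned to it alone and was not analysed here. The list was drawn up with the levels and differences measured on these same arrays known, so it counts as selected on those values, and the differences between treatments are given as a description.

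Eph receptors form the largest family of receptor tyrosine kinases, and their ligands, the ephrins, are themselves tethered to the membrane, by a lipid anchor in the A class and by a transmembrane stretch in the B class. Signalling therefore needs contact between cells and can run into both of them. In epithelia the family is known for sorting cells and placing boundaries and for its interplay with cadherin junctions, and in the mammary gland EPHB4 and its ligand ephrin-B2 are known from work on mouse gland development.

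The cells were HMT-3522 S1, 1 established non-neoplastic line at passages 55 to 60, grown in medium containing 5% Matrigel. All groups had EGF for 8 days and then 48 hours without it, which takes the cells out of cycle. The AGA group received 10 µM 18-alpha-glycyrrhetinic acid, an inhibitor of gap junctions, and the Aza group 10 µM 5-aza-2'-deoxycytidine, a nucleoside analog that blocks methylation of DNA. Both were given for 10 days from plating in medium renewed every 2 days. The vehicle group had neither agent, and its cells are labelled apically polarized, whereas the AGA and Aza cells are labelled not polarized. Each group had 4 arrays, numbered 1 to 4 and described as biological replicates.

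Levels are log2 intensities of a probe set after quantile normalization of the 12 arrays, with intensities under 1 set to 1, so that a level of 0 is the floor. A difference of 1 is a doubling. A level of one probe set says nothing against a level of another. The median of the mean levels of all probe sets was 4.76. Of the 13 member probe sets, 8 lay above it, and 5 did not: both of EPHA1, the single ones of EPHA2 and EPHA7, and EPHB3 1438_at. No detection calls were used here, so such dim probe sets may measure little beyond background. RNA came from whole cultures, in which fewer cells carrying a transcript and less of it in each cell cannot be told apart.

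The sequences upstream of 4 members are shown because these genes are among those with lower AGA levels described below, and because 1 of the agents acts on the methylation of CpG. Each is the 250 bases before the most upstream start that the RefSeq table lists for the gene (GRCh38.p14), 5′ to 3′ on the gene's strand, with every CpG in capitals (motif CG, which reads the same on both strands).
EPHB6 (chr7:142862506-142862755, + strand): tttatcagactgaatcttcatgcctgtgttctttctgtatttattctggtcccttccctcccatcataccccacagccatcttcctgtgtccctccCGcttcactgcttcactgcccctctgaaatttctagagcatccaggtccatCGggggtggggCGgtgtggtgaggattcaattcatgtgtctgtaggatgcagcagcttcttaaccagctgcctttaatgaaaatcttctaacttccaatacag
EPHA4 (chr2:221574203-221574452, - strand): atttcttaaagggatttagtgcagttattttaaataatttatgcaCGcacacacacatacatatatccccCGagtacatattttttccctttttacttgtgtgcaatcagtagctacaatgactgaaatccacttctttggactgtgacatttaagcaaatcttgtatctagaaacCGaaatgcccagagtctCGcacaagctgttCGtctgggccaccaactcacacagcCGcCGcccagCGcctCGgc
EPHA7 (chr6:93419560-93419809, - strand): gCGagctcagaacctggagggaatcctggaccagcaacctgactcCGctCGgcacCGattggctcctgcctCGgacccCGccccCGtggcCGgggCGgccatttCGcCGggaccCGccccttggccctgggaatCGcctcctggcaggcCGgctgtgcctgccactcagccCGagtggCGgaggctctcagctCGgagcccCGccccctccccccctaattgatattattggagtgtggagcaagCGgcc
EFNB2 (chr13:106535663-106535912, - strand): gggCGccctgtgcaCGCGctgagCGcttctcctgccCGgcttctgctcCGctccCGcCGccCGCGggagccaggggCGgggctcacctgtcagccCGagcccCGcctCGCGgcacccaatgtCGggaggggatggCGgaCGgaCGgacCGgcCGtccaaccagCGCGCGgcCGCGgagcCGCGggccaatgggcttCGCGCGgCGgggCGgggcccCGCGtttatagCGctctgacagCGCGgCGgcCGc
The EPHB6 stretch held 3 CpG and 48.0% G or C. It lies inside the annotated EPHB6 gene (chr7:142855076-142871093), unlike the windows of the other 9 listed genes, so it is not upstream of the whole gene. EPHA4 had 9 CpG in this window and 2 windows in the table. EPHA7 had 19 CpG and 3 windows. The EFNB2 stretch was 78.4% G or C with 40 CpG; 2.07% of 27305 genes have as many or more in this window. The median gene has 10 CpG there, and 93.6% have at least 1. All 10 listed genes matched, and 8 of them were at or above that median. Methylation itself was not measured.

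EPHB6, a receptor whose kinase domain has lost catalytic activity, had the largest AGA difference among the members above the median level. Its probe set, 204718_at, measured 7.66, 6.43, 6.50 and 7.65 on the AGA arrays, 7.85, 7.44, 7.79 and 8.31 on the Aza arrays and 8.07, 7.42, 7.95 and 8.14 on the vehicle arrays, in replicate order. AGA replicates 2 and 3 were the lowest of the 12 arrays. The groups overlapped, since AGA replicates 1 and 4 lay above vehicle replicate 2, but each AGA array lay below the vehicle array of the same number. The means were 7.06 ± 0.69 with AGA, 7.85 ± 0.36 with Aza and 7.89 ± 0.33 with vehicle (SD, n = 4 each).

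**Figure D1:**
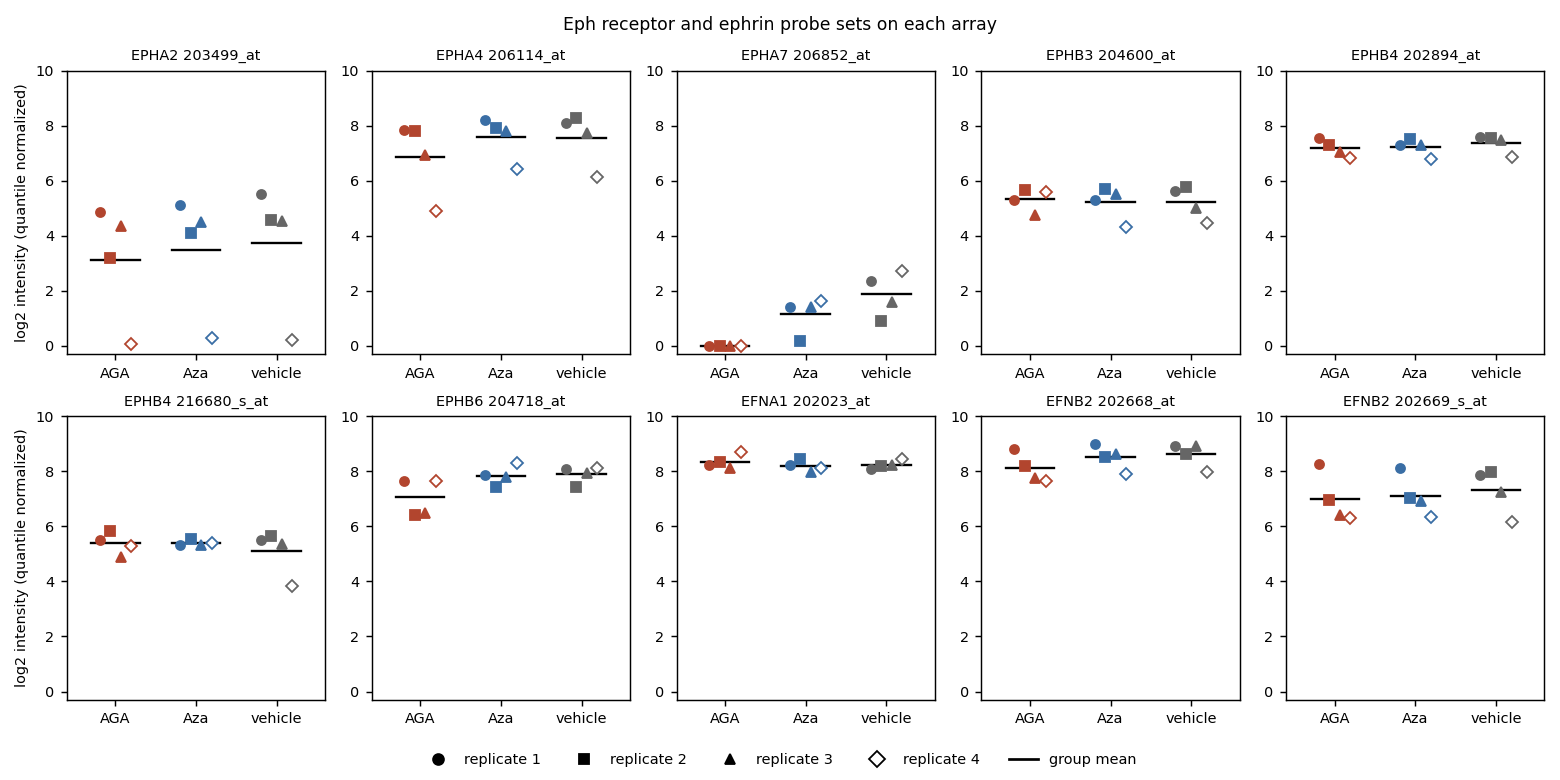
Log2 intensity (quantile normalized, y axis) of 10 Eph receptor and ephrin probe sets on the 12 arrays, with AGA, Aza and vehicle from left to right; marker shapes give the replicate number and bars the group means. EPHA7 sits at the floor on all 4 AGA arrays, EPHB6 is low on AGA replicates 2 and 3, and the open replicate 4 markers of EPHA2 and EPHA4 lie far below the rest in every group.

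The AGA minus vehicle difference of EPHB6 was -0.84 (SE 0.33), and its 4 same-number differences were -0.41, -0.99, -1.45 and -0.49. In limma fitted to all 12 arrays it did not pass after adjustment over all probe sets (adjusted p = 1). With the replicate number as a block it did not pass either (limma, adjusted p = 0.426). Another fit, called block and trend here, had the block, a variance trend with intensity and the robust option of eBayes. There the difference passed (limma, SE 0.15, adjusted p = 0.0198). That call was lost without AGA replicate 2, AGA replicate 3, vehicle replicate 2 or vehicle replicate 3, where limma's adjusted p was between 0.0650 and 0.139. It was kept without each of the other 8 arrays. It was also lost when replicate 4 of all 3 groups was left out (limma, adjusted p = 0.0556) and with intensities under 16 set to 16 (limma, adjusted p = 0.254). The floor of 16 left the EPHB6 difference itself at -0.84, since its deposited intensities ran from 78.3 to 331.

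Against AGA, the Aza level of EPHB6 was higher by 0.79 (SE 0.33), in 4 of 4 same-number pairs, and against vehicle it differed by -0.05. The Aza against AGA difference passed only with block and trend (limma, adjusted p = 0.0185; adjusted p = 1 without block and 0.352 with the block alone). It was lost without AGA replicate 2 or 3 or Aza replicate 2, 3 or 4, where limma's adjusted p was between 0.0678 and 0.132. The 2 comparisons share the AGA arrays.

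EPHA4, a receptor that binds ephrins of both classes, had levels of 7.83, 7.80, 6.92 and 4.90 on the AGA arrays, 8.20, 7.92, 7.79 and 6.42 on the Aza arrays and 8.11, 8.28, 7.72 and 6.13 on the vehicle arrays. The replicate 4 arrays were the lowest in every group, and AGA replicate 4 was the lowest of all. Each AGA array lay below the vehicle array of its number, although the groups overlapped. The means were 6.86 ± 1.37 with AGA, 7.58 ± 0.79 with Aza and 7.56 ± 0.98 with vehicle (SD, n = 4 each), a difference of -0.70 for AGA (SE 0.71) and 0.02 for Aza. In the fit without a block, the AGA difference of EPHA4 was -0.05 without AGA replicate 4 and -1.18 without vehicle replicate 4. Leaving out 1 replicate 4 array there breaks its pair and leaves the replicate 4 offset in the other groups. With block and trend the same omissions gave -0.48 and -0.66. Without replicate 4 of all 3 groups the difference was -0.53. With block and trend the standard error fell to 0.17 and the AGA difference missed the threshold (limma, adjusted p = 0.0706). The Aza minus AGA difference of 0.72 was positive in 4 of 4 pairs and also missed it (limma with block and trend, adjusted p = 0.0562). When AGA replicate 4 was left out, it was 0.07 in the fit without a block and 0.50 with block and trend. The EPHA4 AGA difference did pass with block and trend on the deposited scale and without AGA replicate 1 or Aza replicate 4. The Aza against AGA difference passed on that scale and without AGA replicate 1, AGA replicate 2 or Aza replicate 2.

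EPHA7, a receptor of the A class best known from the developing nervous system, was very dim, in the lowest 7.51% of probe sets. All 4 AGA arrays were at the floor, with deposited intensities of 0.717, 0.740, 0.692 and 0.393. The Aza arrays had deposited intensities of 2.74, 1.21, 2.71 and 3.04, and the vehicle arrays 4.92, 2.13, 3.29 and 6.87. On the log2 scale this gave 1.39, 0.17, 1.41 and 1.61 with Aza and 2.34, 0.89, 1.59 and 2.73 with vehicle. The AGA arrays thus lay below every other array, and the Aza arrays each below the vehicle array of the same number.

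The floored EPHA7 difference was -1.89 for AGA (SE 0.41) and -0.74 for Aza (SE 0.41). Neither passed (limma, adjusted p = 0.808 for AGA and 1 for Aza), nor did the AGA difference with block and trend (limma, adjusted p = 0.170). With intensities under 16 set to 16, every EPHA7 value was the same and each difference was 0. Intensities of this size are a small part of the array medians of 23.3 to 35.9.

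EPHA2, the epithelial receptor whose main ligand is ephrin-A1, had levels of 4.86, 3.19, 4.35 and 0.08 on the AGA arrays, 5.10, 4.09, 4.48 and 0.27 on the Aza arrays and 5.53, 4.58, 4.55 and 0.21 on the vehicle arrays. Replicate 4 was near the floor in all 3 groups, with deposited intensities of 1.02 with AGA, 1.20 with Aza and 1.26 with vehicle, against 9.83 to 47.3 on the other 9 arrays. Within each number the AGA array lay below the vehicle array. The difference was -0.60 for AGA and -0.23 for Aza (SE 1.45 each without a block, 0.46 with block and trend). The SE without a block includes the replicate 4 offset that all 3 groups share. The 4 same-number AGA differences were -0.67, -1.40, -0.20 and -0.14. With block and trend neither difference passed (limma, adjusted p = 0.681 for AGA and 0.973 for Aza). Leaving out 1 replicate 4 array breaks its pair and leaves the offset in the other groups. In the fit without a block, the AGA difference of EPHA2 then turned to 0.41 without AGA replicate 4. Without vehicle replicate 4 it was -1.77, and without replicate 4 of all 3 groups it was -0.76. The Aza difference turned to 0.84 without Aza replicate 4.

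**Figure D2:**
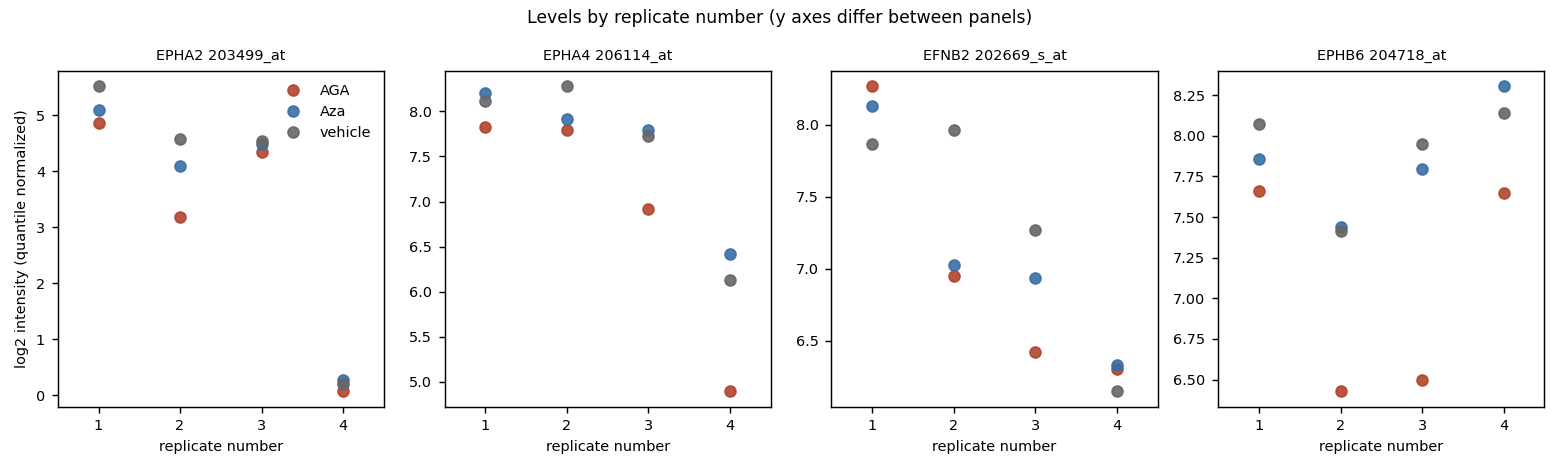
Log2 intensity (quantile normalized, y axis, scaled per panel) against replicate number for EPHA2, EPHA4, EFNB2 202669_s_at and EPHB6, with AGA, Aza and vehicle as separate points. In the first 3 panels all replicate 4 points lie below the other 9 arrays; for EPHB6 the AGA points lie below the other 2 at every number.

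Several members differed more by replicate number than by treatment. All 3 replicate 4 arrays lay below the other 9 for 4 of 13 probe sets (EPHA2, EPHA4, EPHB4 202894_at and EFNB2 202669_s_at), against 7.11% of all probe sets, and above them for 0 of 13, against 7.51%. The replicate 4 mean was lower by 4.34 for EPHA2, 2.03 for EPHA4, 1.76 for EPHB3 1438_at, 1.55 for EPHA1 205977_s_at and 1.17 for EFNB2 202669_s_at. A shift of at least 1 downward was seen for these 5 of 13 probe sets, against 6.69% of all. Nothing particular to the family is read from these shares, since the list was drawn up with the levels known. The replicate 4 mean was higher for 4 probe sets, by 0.58 for EPHA7, 0.57 for EPHB6, 0.48 for EPHA1 215804_at and 0.21 for EFNA1. Replicate 4 also stood apart beyond the members. The first principal component of the probe sets above the median level held 43.4% of their variance. It placed the 3 replicate 4 arrays at 38.7 to 46.3, with the others at -7.32 or lower. Over all probe sets the first component held 16.4% and placed the replicate 4 arrays at 69.3 to 84.5, with the others at -12.0 or lower. What set replicate 4 apart is not given in the labels and was not tested.

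Among the other B-class receptors, EPHB4 is the partner of ephrin-B2. EPHB4 202894_at measured 7.56, 7.31, 7.03 and 6.82 on the AGA arrays, 7.30, 7.53, 7.30 and 6.78 on the Aza arrays and 7.57, 7.55, 7.48 and 6.85 on the vehicle arrays. Replicate 4 was the lowest array of each group, and the groups overlapped. Both agents were below vehicle in 4 of 4 pairs, by -0.18 for AGA (SE 0.24) and -0.14 for Aza (SE 0.24). The second EPHB4 probe set, EPHB4 216680_s_at, measured 5.52, 5.85, 4.89 and 5.29 on the AGA arrays, 5.32, 5.56, 5.32 and 5.41 on the Aza arrays and 5.49, 5.67, 5.38 and 3.83 on the vehicle arrays, and its differences were 0.30 for AGA and 0.31 for Aza (SE 0.37 each). Its vehicle replicate 4 lay well below the other vehicle arrays and decided that sign: without it the differences were -0.12 for AGA and -0.11 for Aza.

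EPHB3, known for the positioning of cells in the intestinal crypt, showed little difference between groups. EPHB3 204600_at measured 5.30, 5.67, 4.77 and 5.58 on the AGA arrays, 5.29, 5.71, 5.51 and 4.32 on the Aza arrays and 5.61, 5.76, 5.02 and 4.45 on the vehicle arrays. The groups overlapped throughout, and the differences were 0.12 for AGA and 0.00 for Aza (SE 0.37 each). The dimmer EPHB3 1438_at gave 0.03 and 0.25 (SE 0.82 each). EPHA1, the founding member of the family, was dim on both of its probe sets, with mean levels of 1.96 and 0.78. EPHA1 205977_s_at differed by -0.80 for AGA and -0.50 for Aza (SE 1.02 each). EPHA1 215804_at, at the floor on 4 arrays, differed by 0.39 for AGA and 0.26 for Aza (SE 0.74 each).

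EFNA1, the lipid-anchored ligand of EPHA2, measured 8.25, 8.34, 8.13 and 8.70 on the AGA arrays, 8.22, 8.44, 8.00 and 8.13 on the Aza arrays and 8.09, 8.18, 8.22 and 8.44 on the vehicle arrays. The 3 groups overlapped and covered less than 1 log2 unit in all. Its differences were 0.12 for AGA and -0.03 for Aza (SE 0.17 each), the smallest errors of any member.

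EFNB2, the transmembrane ligand of EPHB4, had 2 probe sets. EFNB2 202668_at measured 8.81, 8.21, 7.77 and 7.65 on the AGA arrays, 9.01, 8.54, 8.63 and 7.91 on the Aza arrays and 8.93, 8.64, 8.93 and 7.97 on the vehicle arrays. The AGA array was the lowest of its number each time, although the groups overlapped. The means were 8.11 ± 0.53 with AGA, 8.52 ± 0.46 with Aza and 8.62 ± 0.45 with vehicle (SD, n = 4 each). The AGA difference was -0.51 (SE 0.33) and missed the threshold also with block and trend (limma, adjusted p = 0.0827). With block and trend it did pass on the deposited scale (limma, adjusted p = 0.0248) and without AGA replicate 1 (limma, adjusted p = 0.0417). It missed without each of the other 11 arrays. The Aza difference was -0.09, and Aza lay above AGA in 4 of 4 pairs, by 0.41. EFNB2 202669_s_at measured 8.27, 6.95, 6.42 and 6.30 on the AGA arrays, 8.13, 7.03, 6.93 and 6.33 on the Aza arrays and 7.87, 7.96, 7.27 and 6.15 on the vehicle arrays. Its AGA difference was -0.33 (SE 0.55), with 2 of 4 pairs lower, and its Aza difference -0.21. AGA replicate 1 was its highest array, unlike in the other EFNB2 probe set.

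**Figure D3:**
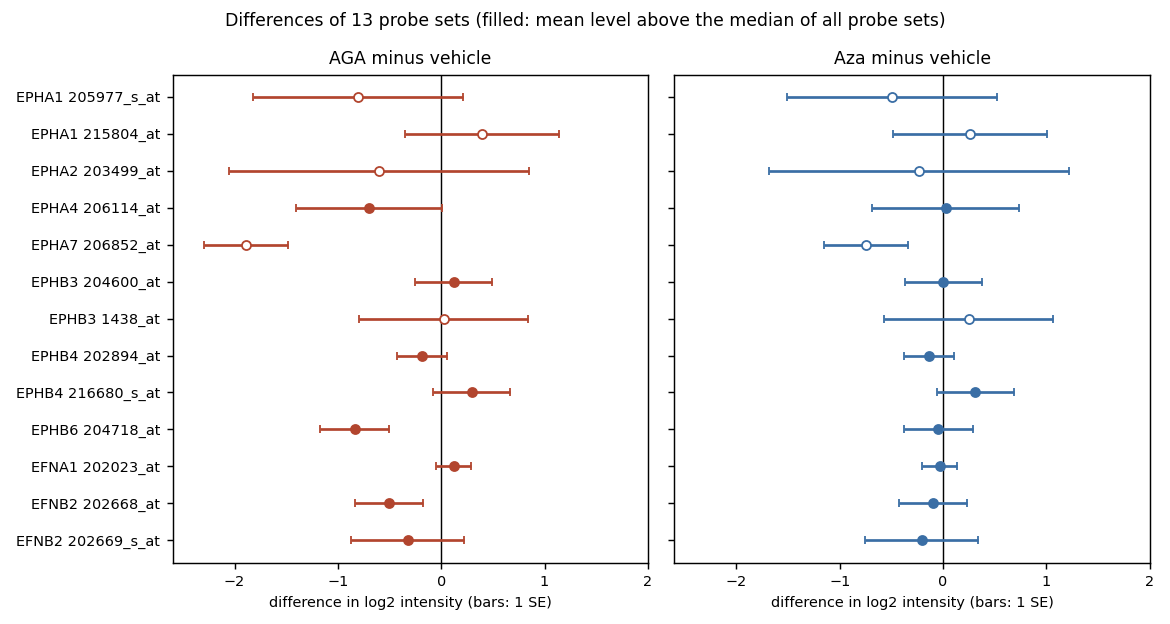
Difference in log2 intensity (x axis) of the 13 probe sets for AGA minus vehicle (left) and Aza minus vehicle (right), with bars of 1 SE from limma; filled points have a mean level above the median of all probe sets. EPHA7 has the lowest AGA difference (-1.89) and EPHB6 the lowest of the filled points (-0.84), whereas the filled Aza points lie between -0.21 and 0.31.

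Counted over the list, 0 of 13 probe sets passed for AGA against vehicle in limma without a block, against 0.009% of all probe sets. For Aza against vehicle it was 0 of 13, against 0.009%, and for Aza against AGA 0 of 13, against 0.0135%. At an unadjusted p under 0.05 there were 2, 0 and 2 member probe sets in the same order, against 4.73%, 3.27% and 4.76% of all probe sets. The block alone also gave 0 in each, against 0.009%, 0% and 0.009% of all probe sets. With block and trend limma called 1 member for AGA (EPHB6, lower), against 0.702% of all probe sets in either direction and 0.315% lower. It called 0 for Aza against vehicle, against 0.0045%, and 1 for Aza against AGA (EPHB6, higher), against 0.851% in either direction and 0.468% higher. Nothing is read from these shares, since the genes were listed with these comparisons known.

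In AGA against vehicle, 6 of 13 probe sets were lower in all 4 same-number pairs (EPHA2, EPHA4, EPHA7, EPHB4 202894_at, EPHB6 and EFNB2 202668_at), against 9.06% of all probe sets. None of the 13 was higher in all 4, against 9.15%. For Aza against vehicle 2 were lower in all 4 pairs (EPHA7 and EPHB4 202894_at), against 7.12%, and 0 higher, against 7.61%. For Aza against AGA 5 were higher in all 4 pairs, against 8.66%, and 0 lower, against 8.76%. The groups did not overlap for 1 of 13 probe sets (EPHA7) in AGA against vehicle, lower, against 1.29% of all, and 0 of 13 were apart and higher, against 1.23%. EPHA7 was also the only 1 in Aza against AGA, higher, against 1.24%, with 0 of 13 lower, against 1.34%. None was apart in Aza against vehicle, against 0.878% lower and 0.846% higher. The median member difference was -0.33 for AGA, -0.05 for Aza and 0.22 for Aza against AGA, and that of all probe sets 0.00 in each. Below 0 were 8 of 13 for AGA, against 49.9%, 8 of 13 for Aza, against 50.2%, and 3 of 13 for Aza against AGA, against 50.3%. These counts and medians describe a list drawn up with the differences known, so no shift of the family is read from them.

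Of 12 further genes of the family, 9 had probe sets assigned to them alone, 15 in all. Only 3 of these 15 lay above the median level: EFNA4 205107_s_at, EFNA5 214036_at and EFNB3 205031_at. None passed in any of the 3 comparisons, without a block, with it, or with block and trend (limma). Of all probe sets, 0.702%, 0.0045% and 0.851% passed with block and trend in AGA against vehicle, Aza against vehicle and Aza against AGA. At an unadjusted p under 0.05 there were 0, 0 and 1 of the 15 in that order, against 4.73%, 3.27% and 4.76% of all. Nothing is read from these counts, since such shares leave few calls to be had among 15 probe sets. EFNB3 210883_x_at, a probe set of a transmembrane ligand, had the lowest p of this list for AGA, with a difference of 1.02 (SE 0.49, limma adjusted p = 1). It was also the lowest for Aza against AGA, at -1.20 (SE 0.49, limma adjusted p = 1). EPHB1 210753_s_at had the lowest for Aza against vehicle, at -0.78 (SE 0.80, limma adjusted p = 1).

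Of 31 genes whose products carry signals from Eph receptors and ephrins, 28 had probe sets assigned to them alone, 63 in all, with 41 above the median level. None passed without a block or with the block alone (limma), and 4, 0 and 4 of 63 had an unadjusted p under 0.05 in AGA against vehicle, Aza against vehicle and Aza against AGA, against 4.73%, 3.27% and 4.76% of all probe sets. With block and trend 4 of 63 were lower after AGA, against 0.315% of all probe sets: 3 of PIK3R1, the regulatory subunit of phosphoinositide 3-kinase, and 1 of PTPN13, a phosphatase that acts on B-class ephrins. None was higher, 0 changed with Aza against vehicle, and 3 were higher in Aza than in AGA, against 0.468% of all: 2 of PIK3R1 and 1 of PTPN11, the phosphatase SHP2. The list was written here without regard to how its genes moved, but after results of these arrays had been seen. The 3 PIK3R1 probe sets measure 1 gene and are not separate results. For both reasons nothing is read from the shares of partner probe sets called.

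PIK3R1 212239_at measured 10.78, 10.82, 10.50 and 11.32 on the AGA arrays, 11.27, 11.14, 11.38 and 12.03 on the Aza arrays and 11.29, 11.17, 11.36 and 11.88 on the vehicle arrays. AGA replicate 3 was the lowest of the 12 arrays and the replicate 4 arrays the highest of their groups. Each AGA array lay below both others of its number, although AGA replicate 4 was above vehicle replicates 1 and 2. Its AGA difference was -0.57 (SE 0.08 with block and trend, limma adjusted p = 0.00396; adjusted p = 1 without block and 0.413 with the block alone). PIK3R1 212240_s_at and 212249_at differed by -0.50 and -0.77 (limma with block and trend, adjusted p = 0.00547 and 0.0244). Against AGA, the Aza level was higher by 0.60 and 0.49 for PIK3R1 212239_at and 212240_s_at (limma with block and trend, adjusted p = 0.000987 and 0.0040). Both of these probe sets were called in both comparisons (AGA against vehicle and Aza against AGA) whichever 1 of the 12 arrays was left out, whereas the AGA call of 212249_at was lost without AGA replicate 3 or vehicle replicate 3 (limma, adjusted p = 0.142 at most). Without replicate 4 of all 3 groups the AGA call of 212240_s_at was lost (limma, adjusted p = 0.0564), and with a floor of 16 every partner call was lost (for 212239_at after AGA, limma adjusted p = 0.156).

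PTPN13 204201_s_at measured 8.52, 8.61, 8.09 and 8.25 on the AGA arrays, 8.44, 8.85, 8.57 and 8.67 on the Aza arrays and 8.81, 8.94, 8.89 and 8.97 on the vehicle arrays. All AGA arrays lay below all vehicle arrays, as for 1.29% of all probe sets. How many partner probe sets did so was not counted. The PTPN13 difference was -0.53 (SE 0.10 with block and trend). It missed the threshold without a block (limma, adjusted p = 0.953) and with the block alone (limma, adjusted p = 0.426). With block and trend it was called (limma, adjusted p = 0.0230). That PTPN13 call was lost without AGA replicate 3 or 4 or vehicle replicate 1, 3 or 4, where limma's adjusted p was 0.0604 or higher. It was also lost without replicate 4 of all 3 groups (limma, adjusted p = 0.147). PTPN11 212610_at was higher in Aza than in AGA by 0.38 (limma, adjusted p = 0.0252 with block and trend, 1 without block and 0.405 with the block alone). The PTPN11 call was lost without AGA replicate 1, 3 or 4 or any 1 Aza array (limma, adjusted p between 0.0586 and 0.146), and on median-centred arrays (limma, adjusted p = 0.0774). It was also lost on the deposited scale (limma, adjusted p = 0.0622) and without replicate 4 of all 3 groups (limma, adjusted p = 0.106). The other PTPN11 probe sets, 209896_s_at, 209895_at, 205867_at and 205868_s_at, were not called with block and trend. PTPN13 had also the lowest p of the list for AGA without a block. For Aza against vehicle the lowest p was that of TIAM1 213135_at, an exchange factor for RAC1, at 0.96 (SE 0.46, limma adjusted p = 1). For Aza against AGA it was that of VAV2 205537_s_at, at -1.38 (SE 0.41, limma adjusted p = 0.817), a probe set within the lowest 3.42% of levels.

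**Figure D4:**
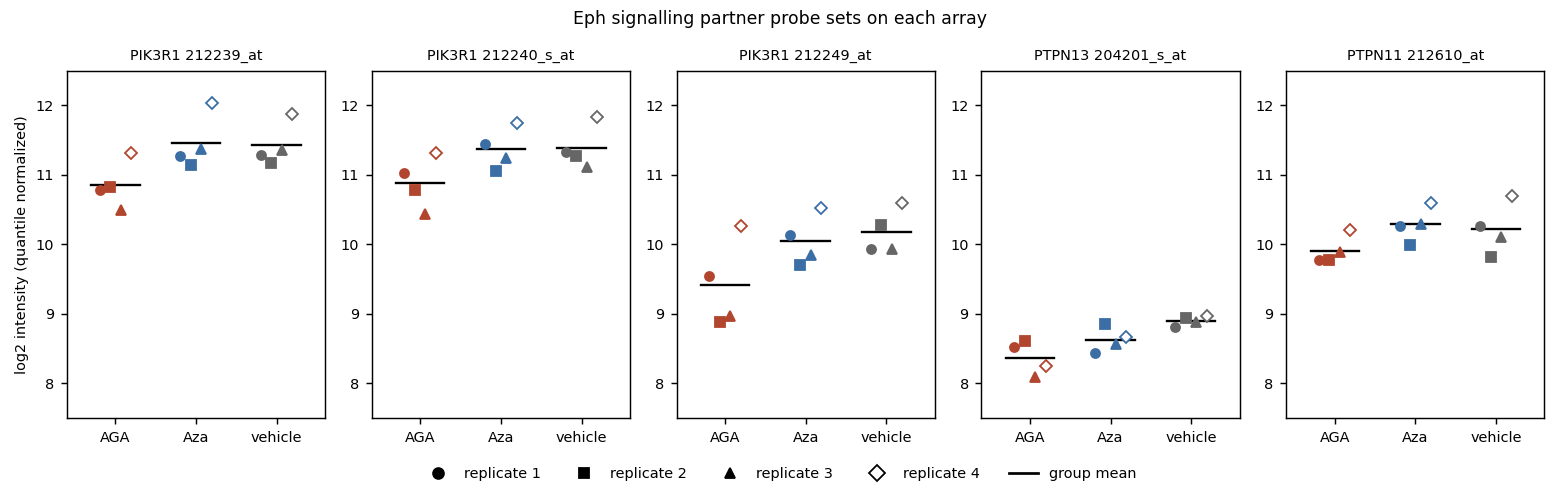
Log2 intensity (quantile normalized, y axis) on the 12 arrays of the 5 signalling partner probe sets that passed with replicate block and trend, with AGA, Aza and vehicle from left to right; marker shapes give the replicate number and bars the group means. The AGA means of the 3 PIK3R1 probe sets lie below both other means. All PTPN13 AGA points lie below the vehicle points, as for 1.29% of all probe sets.

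Among probe sets above the median level, those whose deviations from the replicate-number means, scaled to unit SD, came closest to EPHB6 over the 12 arrays were AIMP1, WIPF1 and SRSF11. Their root mean square differences were 0.206, 0.212 and 0.239, where the median of 9792 candidate probe sets was 1.36. For EPHA2 the closest were IL27RA, PTPN6 and CCNL1, at 0.275, 0.304 and 0.307. Those are the smallest of very many values and say nothing of shared control.

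The labelled cell type was checked against markers. Of 10 epithelial markers 8 had a probe set and all 8 lay above the median level, with KRT5 at 12.39, KRT14 at 12.37 and CDH1 at 7.84. None of 4 measured leukocyte markers did. Of 6 fibroblast markers 2 did, COL1A1 at 7.15 and DCN at 5.01, with LUM near the floor at 0.20. Of 5 endothelial markers 1 did, KDR at 7.57, with CDH5 at 0.76 and PECAM1 at 2.05. The summed fibroblast markers, as log2, ran over 7.01 to 7.73 with AGA, 7.82 to 8.10 with Aza and 7.40 to 8.04 with vehicle. The endothelial ones ran over 6.69 to 7.85, 7.57 to 8.37 and 7.31 to 8.30 in those groups, and the epithelial ones over 13.73 to 13.97, 13.17 to 13.83 and 13.23 to 13.86. The leukocyte ones ran over 4.59 to 5.61, 3.73 to 5.71 and 4.24 to 5.73. The AGA and vehicle ranges overlapped for each of these sums. The fibroblast and endothelial sums reached lower values with AGA than with vehicle, as EPHB6 did, and the leukocyte and epithelial sums did not. Levels were added unlogged, so each sum rests mostly on its brightest genes, COL1A1 for fibroblast and KDR for endothelial. These sums therefore say little about the dim markers of the same lists. The part of any marker in the EPHB6 difference was not tested.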

How the data were processed

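Total RNA of 12 cultures was labelled with biotin and hybridised to 1-colour Affymetrix arrays, per the labels' protocols. The deposited values are intensities per probe set on a linear scale, made with GCOS per the submitters' processing notes; its version, algorithm and scaling are not given in the sources used here. Of 22277 probe sets, 62 controls were removed. Intensities under 1 (5.26% to 7.94% per array) were set to 1, and log2 values were quantile normalized. Gene symbols came from the platform annotation (19064 probe sets with 1 symbol, 1043 with several, 2108 with none). Of these, 19052 matched the RefSeq gene table by gene ID, and 0 symbols changed.

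The main test was limma 3.58.1 (R 4.3.3), fitted over all 12 arrays in 3 groups with lmFit and then eBayes, two-sided, with Benjamini-Hochberg adjustment over 22215 probe sets and a threshold of 0.05; it was tested on simulated data. Depth cannot be given for arrays; 4 per group limit the precision. The members and lists were chosen with earlier results of these data known. Values on every array are given for members above the median level, those that passed in any comparison without or with the block, and those with the largest absolute differences; EPHA2 and PIK3R1 212239_at and PTPN13 were added after their values were seen. From the other 2 lists, probe sets that passed, or had the lowest p, are named.

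Same-numbered arrays were checked for pairing: deviations from the group means correlated above 0.1 in 12 of 12 same-number pairs over probe sets above the median level (0.37 to 0.78, highest between different numbers 0.18), but in 6 of 12 over all probe sets (0.06 to 0.26). The numbers were therefore taken as pairs, on the data and not on the labels, and the fit with the replicate number as a block is given beside each result it changes. Wherever block and trend are named together, eBayes was also run with its robust option, and the part of that option in the calls was not tested. Alternatives were other floors, normalizations, filters, blocks and samples left out.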

Additional observations from a re-analysis of the deposited data

Results flagged for a closer look

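The 13 member and 5 called partner probe sets gave 54 groups of 4 arrays. In 5 of them a lone array was set apart from the other 3 by a gap above Dixon's critical share of the group's range. Chance gives about 1 in 20 for values that are not held at a floor. The EPHA7 AGA group, at the floor on all 4 arrays, had no range and could not be flagged. EPHA1 215804_at measured 3.03 on Aza replicate 1, against 0.00 to 0.24 on the other Aza arrays. EPHA7 206852_at measured 0.17 on Aza replicate 2, against 1.39 to 1.61. EPHB3 1438_at measured 1.23 on Aza replicate 4, against 3.75 to 4.20. EPHB4 202894_at measured 6.85 on vehicle replicate 4, against 7.48 to 7.57 on the other vehicle arrays, and EPHB4 216680_s_at 3.83, against 5.38 to 5.67. Of these 5, 3 lie on replicate 4 arrays.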

How the results depend on the processing

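Over 37 settings the counts of called member, further family and partner probe sets were computed 333 times; 276 stayed as in the fit without a block, and the 57 that changed all had replicate block and trend together. The replicate block alone gave 0 called member probe sets in each comparison. With replicate block and trend, which pairs arrays by number, 1 member was called for AGA against vehicle and 1 for Aza against AGA, and 4 and 3 partner probe sets. The settings that combine it with another were chosen after seeing the data. On median-centred arrays those counts were 1, 1, 4 and 3, though the 3 were then all of PIK3R1, without PTPN11. On the deposited scale they were 3, 2, 7 and 5; there the median of all probe sets itself moved by -0.24 for AGA and 0.18 for Aza against AGA, and EPHB6 differed by -1.11, which is -0.86 relative to that median. Leaving out 1 array at a time gave 0 to 3 members for AGA against vehicle, 0 to 2 for Aza against AGA, 2 to 5 partners in each, and 0 to 1 further family probe set for Aza against AGA (EFNB3, without AGA replicate 2 or Aza replicate 2). Without AGA replicate 1 the members called for AGA were 3, without Aza replicate 4 they were 2, and without AGA replicate 1 those for Aza against AGA were 2. Without replicate 4 of all 3 groups 0 members and 2 and 3 partners were called. With a floor of 16 no member or partner was called. The share of all probe sets called in each of these settings is not given beside the counts, so nothing is read from their rise or fall. EPHB6 kept its sign in 37 of 37 settings in AGA against vehicle (-1.11 to -0.63) and in Aza against AGA (0.58 to 0.99). The causes of these changes were not tested. The dim members, EPHA7 above all, rest on intensities near the floor.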
